A study of Homo sapiens with 4 samples.

Results

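The 7 human TRAF genes, TRAF1 to TRAF7, were followed through chromatin accessibility in a breast cancer line that carried either a control guide or a labelled deletion of CECR2, a gene for a bromodomain protein of chromatin remodelling complexes. Their peaks were all those that lay inside a TRAF gene or within 10 kb of either of its ends. This gave 63 of the 190348 peaks in the table, of which 62 had enough counts to be tested. The genes were taken as a family by name. TRAF1 was selected on the log2 fold changes of its peaks in this same contrast, known from earlier results, so it is described with values and calls but with no p-value. The 14 peaks within 1 kb of either end of a gene are called gene-end peaks, and the 49 others lie inside the gene or in its flanks.

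TRAF proteins are adaptors that sit under receptors of the tumour necrosis factor (TNF), interleukin-1 and Toll-like families and pass their signal to NF-kB and MAP kinases. Most carry a RING domain that attaches ubiquitin and a C-terminal TRAF domain that binds receptors. TRAF1 lacks the RING domain and TRAF7 has WD40 repeats in place of the TRAF domain. TRAF1 is also a known target gene of NF-kB.

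Accessibility was measured by ATAC-seq, in which the Tn5 transposase cuts and tags accessible chromatin. The cells were LM2, derived from MDA-MB-231 and with a raised potential to metastasise to the lung, and both groups were grown in medium with puromycin. The control group carried a non-targeting guide and the sg1 group a CECR2 deletion made with guide sg1, with 2 libraries of 50000 cells in each. Whether the 2 libraries of a group were separate cultures is not stated, so the p-values rest on a spread that may be technical, and the labels do not say whether the edited cells were 1 clone.

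After peaks at the start of chromosome 1 were left out, 21002477 and 15561701 counts remained for the controls against 43519018 and 38924086 for sg1, which was 2.25 times as deep. The peaks left out held 17.9% and 18.0% of all counts in the control libraries and 25.4% in each sg1 library, and the part of this difference in the results below was not tested. All 7 marker genes of mesenchymal-like breast cancer lines had a gene-end peak in the control, from 6.01 to 85.4 CPM with VIM the highest, while the luminal gene ESR1 and the haematopoietic gene IKZF1 had none. The tallest gene-end peak of CECR2 was at 3.59 and 3.39 CPM in the control and 3.34 and 4.18 in sg1, which gives no check of the deletion. Levels are given as TMM-scaled CPM, that is counts relative to library size, and a positive log2 fold change means more counts in sg1. A peak is called lower or higher where edgeR's quasi-likelihood test gave a Benjamini-Hochberg FDR under 0.05 over all 184717 tested peaks.

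Of the 63 TRAF peaks, 8 cover an annotated TRAF start, and the 250 bases before 4 of these starts are shown first. The sequences are from RefSeq (GRCh38.p14), which matched all 7 genes. They are the first and the second start of TRAF1, whose peaks moved in opposite directions, the start of TRAF3, which held the family's 1 match to the NF-kB binding consensus, and the first start of TRAF5, whose peak rose most. Capitals mark matches, on either strand, to the GC box GGGCGG and to the kB consensus.
TRAF1 first start, chr9:120929172-120929421, minus strand: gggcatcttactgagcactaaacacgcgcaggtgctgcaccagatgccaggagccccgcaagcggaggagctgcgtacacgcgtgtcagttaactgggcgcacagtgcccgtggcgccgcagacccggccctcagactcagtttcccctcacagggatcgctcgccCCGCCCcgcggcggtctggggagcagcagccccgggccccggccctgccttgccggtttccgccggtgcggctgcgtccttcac
TRAF1 second start, chr9:120926797-120927046, minus strand: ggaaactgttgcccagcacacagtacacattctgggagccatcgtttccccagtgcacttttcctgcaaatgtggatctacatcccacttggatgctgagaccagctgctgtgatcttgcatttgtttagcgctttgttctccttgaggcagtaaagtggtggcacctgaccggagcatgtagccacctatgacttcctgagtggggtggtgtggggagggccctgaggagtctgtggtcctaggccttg
TRAF3 start, chr14:102777199-102777448, plus strand: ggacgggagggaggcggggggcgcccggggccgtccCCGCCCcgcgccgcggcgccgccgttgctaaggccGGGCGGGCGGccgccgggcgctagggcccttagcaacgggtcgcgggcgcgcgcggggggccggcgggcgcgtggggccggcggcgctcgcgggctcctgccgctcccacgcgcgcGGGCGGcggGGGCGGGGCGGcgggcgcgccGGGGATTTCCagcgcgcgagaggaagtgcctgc
TRAF5 first start, chr1:211326385-211326634, plus strand: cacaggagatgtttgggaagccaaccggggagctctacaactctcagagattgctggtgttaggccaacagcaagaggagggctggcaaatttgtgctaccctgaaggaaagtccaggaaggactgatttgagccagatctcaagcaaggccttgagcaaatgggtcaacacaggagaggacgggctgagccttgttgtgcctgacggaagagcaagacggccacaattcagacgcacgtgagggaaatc

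The window before the first TRAF1 start was rich in G and C, at 70.0% of its bases, and held a GC box 84 bases before the start. The windows before the second TRAF1 start and the first TRAF5 start had 54.0% and 53.6% and held no GC box. The TRAF5 peak also covers the second TRAF5 start, whose window had 68.4% and held 3 GC boxes. Over 300 bases, from 250 before to 50 after a start, the search also covered the AP-1 motif TGANTCA and the TEAD motif GGAATG. No TRAF start held the AP-1 motif, and a TEAD match stood at TRAF6 and at TRAF7. The kB match of TRAF3 began 33 bases before its start and overlapped none of the 6 GC boxes there. Among 22078 starts of protein-coding genes, 12.6% held the kB consensus, 6.16% AP-1, 12.2% TEAD and 56.3% a GC box, so single matches of this kind are common. No match says only that these letters are not in the window, and the rest of each start peak was not searched. Most of the window before the second TRAF1 start lies beyond the end of its peak, at 120926867.

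Of the 62 tested TRAF peaks, 25 (40.3%) were lower and 9 (14.5%) higher in sg1, where 16.8% of all tested peaks were lower and 11.5% higher. The losses sat mainly at TRAF1, TRAF2 and TRAF3, which held 9, 6 and 7 of the lower peaks, while TRAF4, TRAF5 and TRAF7 held 8 of the 9 higher ones. A smaller share of cells with an open site and less opening in each cell cannot be told apart in such bulk libraries. Among gene-end peaks, 4 of 14 were lower and 3 higher, against 7.28% and 21.2% of all tested gene-end peaks. Among other peaks, 21 of 48 were lower and 6 higher, against 17.6% and 9.99% of all such peaks near protein-coding genes. The median log2 fold change was 0.06 at TRAF gene-end peaks and -0.45 at the other TRAF peaks, against 0.17 and -0.01 over the same kinds of peak in the genome. Of the 8 peaks over a TRAF start, 1 was lower and 3 higher, against 7.36% and 31.6% of all tested start peaks. Counts, shares and medians over all 7 genes, here and below, include TRAF1, whose values in this contrast selected it. Without TRAF1, losses made up 34.0% of the 47 tested peaks (16 peaks) and gains 17.0% (8 peaks). At gene ends, TRAF2 to TRAF7 had 3 losses and 2 gains among 12 peaks, and the median log2 fold change stayed at 0.06. Their other peaks held 13 losses and 6 gains among 35, and the median there moved from -0.45 to -0.30.

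**Figure D1:**
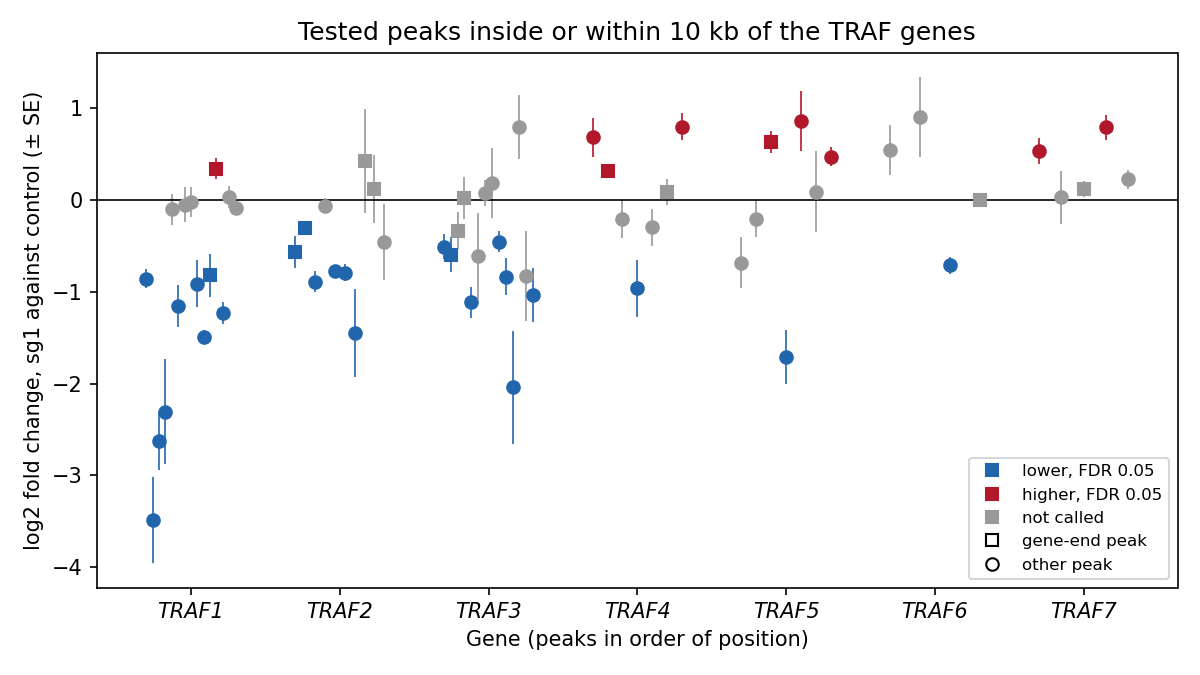
Log2 fold change of each tested TRAF peak, sg1 against control, with its standard error, by gene and in order of position. Squares are gene-end peaks and circles other peaks, with blue for lower, red for higher and grey for not called. TRAF1, TRAF2 and TRAF3 hold 22 of the 25 lower peaks.

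Both sg1 libraries lay below both controls at 32 of the 62 peaks and above both at 14, against 31.9% and 31.8% of all tested peaks. DESeq2 called 15 TRAF peaks lower and 6 higher, against 10.4% and 4.94% of all tested peaks with a DESeq2 adjusted p. Without sg1 replicate 2, edgeR called fewer peaks in each direction, both at the TRAF genes and over all peaks. The calls of 12 of the 25 lower and 5 of the 9 higher peaks were made again whichever 1 of the 4 libraries was left out. Outside TRAF1 these were 3 losses at TRAF2 and 1 each at TRAF3, TRAF5 and TRAF6, and 2 gains each at TRAF4 and TRAF5 and 1 at TRAF7. The losses kept at TRAF1 are a description, since its values in this contrast selected it. The share of all called peaks kept in this way is not given, so these counts do not compare TRAF calls with others.

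TRAF1 encodes an adaptor that pairs with TRAF2 and holds it at TNF receptors. The gene lies on the minus strand of chromosome 9 at 120902393 to 120929171, and RefSeq lists 3 starts for it, at 120929171, 120926796 and 120914583. The peak over the second start, at chr9:120925884-120926867, was the tallest of the locus. Its counts were 1391 and 1064 in the controls and 1108 and 935 in the deeper sg1 libraries, or 67.5 and 69.3 CPM against 25.0 and 23.7. The groups stood far apart, a 2.81-fold loss (log2 fold change -1.49, SE 0.07). The peak over the first start, at chr9:120928589-120929298, went the other way, with 10.8 and 11.1 CPM in the control and 13.9 and 13.8 in sg1 (log2 fold change 0.34, SE 0.11). In the control the second start was the more open by far, and in sg1 it stayed above the first, by a smaller margin. The third start lay in no peak.

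The gain at the first start was the less firm of the pair. It was called with all 4 libraries and without control replicate 2, but not by DESeq2, nor without control replicate 1, sg1 replicate 1 or sg1 replicate 2. The loss at the second start was called under each of these. Of 1008 protein-coding genes with starts in at least 2 tested peaks, 42 (4.17%) had a lower and a higher start peak, TRAF1 among them. The gap of 1.83 between the TRAF1 starts on the log2 scale was exceeded by 10 of these genes, and the median gap was 0.29. Start peaks under 60% G and C were lower more often than those at or above it, at 11.8% of 3372 and 5.54% of 8174. Both kinds were more often higher than lower, at 21.3% and 36.0% higher, and a peak with starts of both kinds counts in both. The part of base composition in the TRAF1 contrast was not tested. The sequence windows printed above, one rich in G and C and the other not, are those of these opposite starts. The comparison of starts was chosen after the TRAF1 values were seen.

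**Figure D2:**
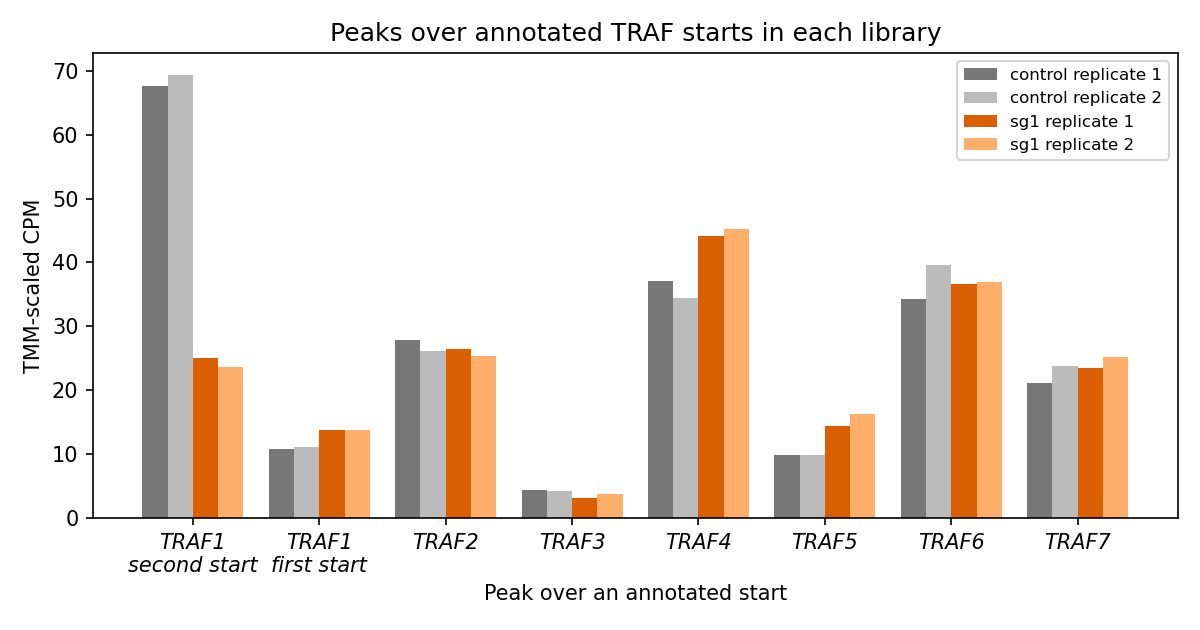
TMM-scaled CPM in each of the 4 libraries at the 8 peaks that cover an annotated TRAF start. The second start of TRAF1 falls from 67.5 and 69.3 to 25.0 and 23.7 CPM, while those of TRAF4 and TRAF5 are higher in both sg1 libraries than in both controls.

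Loss extended over both sides of TRAF1. Before the first start, the peak at chr9:120931291-120931957 was at 17.8 and 20.6 CPM in the control and 7.38 and 8.94 in sg1 (log2 fold change -1.23, SE 0.12). Inside the gene, the peak at chr9:120914994-120915465 was at 4.27 and 5.60 CPM against 2.50 and 1.85 (log2 fold change -1.16, SE 0.23). These 2 lay on opposite sides of the second start, and in both the sg1 libraries were below the controls. Beyond the far end of the gene, toward PHF19, 4 peaks were lower. The tallest of them, at chr9:120892293-120893277, was at 20.1 and 20.7 CPM in the control and 11.5 and 11.0 in sg1 (log2 fold change -0.86, SE 0.10). The sharpest loss by fold was a small peak at chr9:120897005-120897215, with 43 and 22 counts in the controls but 7 and 6 in sg1, an 11.2-fold loss (log2 fold change -3.49, SE 0.47). Its neighbour at chr9:120897222-120897516 held 61 and 53 counts against 21 and 22 (log2 fold change -2.62, SE 0.32). These 4 peaks are also within 10 kb of or inside PHF19, so they cannot be given to TRAF1 alone.

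Loss was not uniform along TRAF1. The 3 lower peaks not yet given, which start at 120899687, 120925680 and 120928386, had log2 fold changes of -2.30, -0.91 and -0.82, and DESeq2 and the fit without sg1 replicate 2 called none of them. Of the 15 peaks, 5 were not called. Among these, the pair that starts at 120935369 and 120935794, before the first start, had log2 fold changes of 0.04 and -0.08. The pair that starts at 120924729 and 120924973, near the second start, had -0.05 and -0.03. The peak that starts at 120909610 had -0.10. Between 10 and 50 kb outside the gene, 1 of 5 tested peaks was lower and 0 higher.

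**Figure D3:**
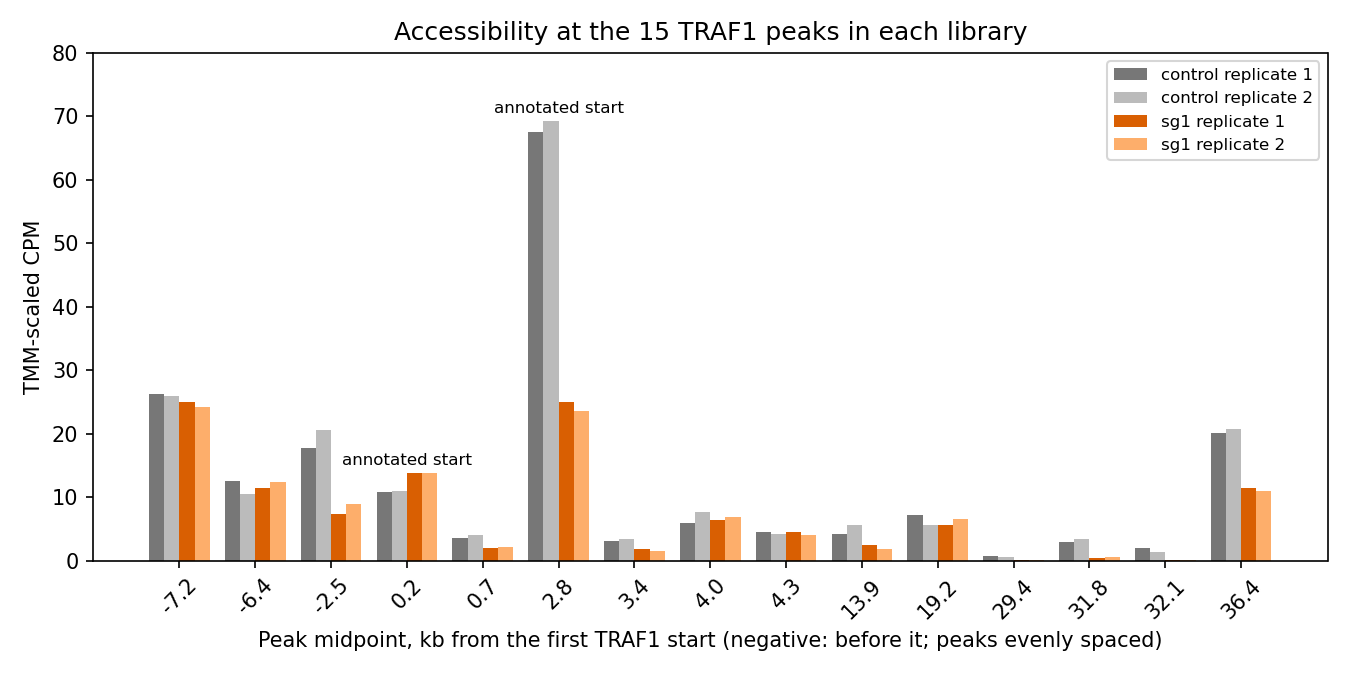
TMM-scaled CPM of the 15 TRAF1 peaks in each library, ordered by the distance of the peak's midpoint from the first TRAF1 start and drawn evenly spaced. The peak 2.80 kb after the first start, over the second start, is the tallest in the control and falls in both sg1 libraries, while the peak over the first start is slightly higher in sg1.

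By the log2 fold changes of its tallest gene-end peak (0.34) and the median of its other peaks (-0.91), TRAF1 was nearest to SETD2 (0.31 and -0.97), YAE1 (0.34 and -0.81) and POLR3A (0.28 and -0.83) among 3928 genes with at least 10 tested peaks. The measure was the Euclidean distance over these 2 values from the 4 libraries. Of these genes, 40 had at least as large a share of their other peaks lower as TRAF1, which had 8 of 13. In 6 of the 40 the tallest gene-end peak was higher as well, where it was higher in 1302 of all 3928 genes. These 6 were TRIB2, ZC3H7B, DNER, ZC3H12A, BACH1 and CDCP1. TRAF1 is placed here by the values that selected it, and its gain at the gene end was the less firm part, so this is a description.

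TRAF2 encodes the adaptor that brings the ubiquitin ligases BIRC2 and BIRC3 to TNF receptors. It lies on chromosome 9 at 136881958 to 136926607, and 6 of its 10 tested peaks were lower and none higher with edgeR or DESeq2. Its tallest peak, inside the gene at chr9:136901006-136902223, was at 77.3 and 78.8 CPM in the control against 45.2 and 46.2 in sg1, on at least 1210 counts a library. This was the most open of all 63 TRAF peaks in the control and lost 1.71-fold (log2 fold change -0.77, SE 0.06, edgeR adjusted p = 7.88e-12). The adjacent peak at chr9:136902395-136902857 fell alike, from 22.3 and 22.5 CPM to 12.8 and 13.1 (log2 fold change -0.79, SE 0.10, edgeR adjusted p = 8.88e-08). A peak before the listed start, at chr9:136884906-136885339, fell from 17.9 and 18.4 CPM to 10.7 and 8.81 (log2 fold change -0.89, SE 0.11, edgeR adjusted p = 2.19e-07). In each of these 3 both sg1 libraries were below both controls.

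The start region of TRAF2 was split. The gene record begins at 136881958, while the RefSeq promoter table lists the start at 136886516. The peak over the listed start, at chr9:136886136-136886629, was at 27.9 and 26.2 CPM in the control and 26.4 and 25.4 in sg1, so the groups overlapped (log2 fold change -0.06, SE 0.08, edgeR adjusted p = 0.598). The tallest gene-end peak, at chr9:136882115-136882989 by the beginning of the gene record, fell from 37.3 and 37.7 CPM to 30.5 and 30.1 (log2 fold change -0.31, SE 0.07, edgeR adjusted p = 0.00163), a call lost without sg1 replicate 2. Small lower peaks start at 136881776 and 136910891, with log2 fold changes of -0.57 and -1.45, and neither was called by DESeq2. The 3 remaining peaks, at the far end, held at most 49 counts and were not called. Without sg1 replicate 2, edgeR called 3 TRAF2 peaks lower.

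TRAF3 encodes a brake on the alternative NF-kB pathway, in which it directs the destruction of the kinase NIK, the product of MAP3K14. It spans chromosome 14 from 102777449 to 102911500, the longest of the 7 genes. Of 14 tested peaks, 7 were lower and none higher with edgeR or DESeq2, and 1 peak was too low to test. The tallest, inside the gene at chr14:102805182-102806029, fell from 15.1 and 13.4 CPM to 10.4 in each sg1 library (log2 fold change -0.46, SE 0.12, edgeR adjusted p = 0.00305). The firmest loss was at chr14:102786586-102787221, from 9.71 and 7.62 CPM to 4.17 and 3.87 (log2 fold change -1.12, SE 0.17, edgeR adjusted p = 4.70e-06). This was the 1 TRAF3 call that no left-out library removed. Further inside the gene, the peak at chr14:102824739-102825289 fell from 6.36 and 4.62 CPM to 3.43 and 2.79 (log2 fold change -0.83, SE 0.21, edgeR adjusted p = 0.00225).

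At the start of TRAF3, the window with the kB match, accessibility was low in all libraries. The start peak, at chr14:102777381-102777889, was at 4.47 and 4.30 CPM in the control and 3.18 and 3.80 in sg1 and was not called (log2 fold change -0.33, SE 0.20, edgeR adjusted p = 0.234). The tallest gene-end peak lay before it, at chr14:102776125-102776602, and fell from 5.53 and 6.12 CPM to 3.41 and 4.28 (log2 fold change -0.60, SE 0.19, edgeR adjusted p = 0.0171). That call was lost in DESeq2 and without control replicate 2 or sg1 replicate 1. The other lower peaks start at 102774621, 102849547 and 102917841, the last of them also near AMN, with log2 fold changes of -0.51, -2.04 and -1.03. DESeq2 called 3 TRAF3 peaks lower, and edgeR called 3 without control replicate 1 and 3 without sg1 replicate 2.

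**Figure D4:**
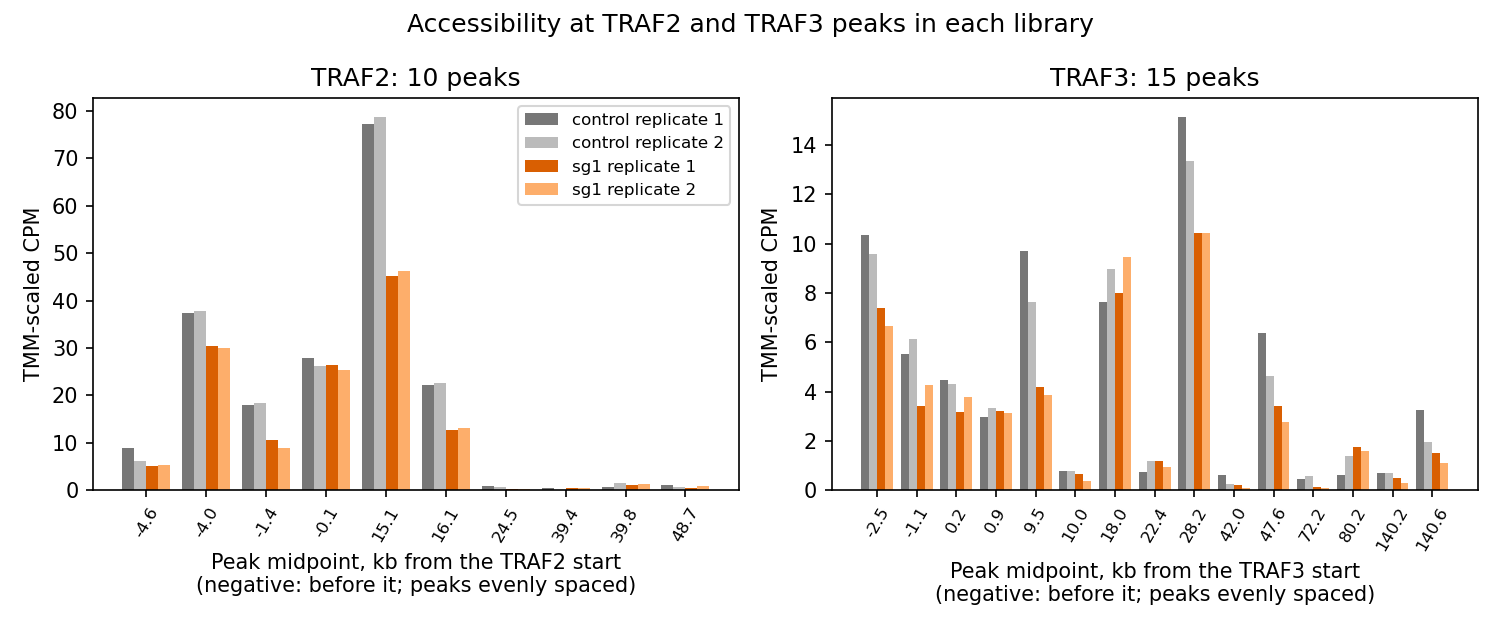
TMM-scaled CPM of the 10 TRAF2 and 15 TRAF3 peaks in each library, ordered by the distance of the peak's midpoint from the listed start and drawn evenly spaced. The TRAF2 peak 15.1 kb after the start falls from 77.3 and 78.8 to 45.2 and 46.2 CPM, while the peak over the TRAF2 start overlaps between groups.

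TRAF5 encodes a close relative of TRAF2 that acts at several TNF receptors. It lies on chromosome 1 at 211326635 to 211374946, and 3 of its 7 peaks were higher and 1 lower. The peak over its first 2 listed starts, at chr1:211326468-211327918, gave 204 and 152 counts in the controls against 639 and 646 in sg1. On the CPM scale each control was at 9.90 and the sg1 libraries at 14.4 and 16.4 (log2 fold change 0.63, SE 0.12, edgeR adjusted p = 8.90e-05). It was the only gene-end peak of TRAF5, and its rise was the largest among the 8 TRAF start peaks. Beyond the far end, the peak at chr1:211382504-211383515 rose from 18.6 and 15.6 CPM to 22.3 and 25.6 (log2 fold change 0.47, SE 0.10, edgeR adjusted p = 0.000402). Inside the gene, 8.52 kb after the first start, the peak at chr1:211334981-211335322 fell from 3.11 and 3.19 CPM to 0.722 and 1.22 (log2 fold change -1.71, SE 0.30, edgeR adjusted p = 3.47e-05). These 3 calls were kept by DESeq2 and without any 1 library. The third higher peak, which starts at 211352961, was not called by DESeq2 (adjusted p = 0.227), nor without control replicate 2 or sg1 replicate 1.

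TRAF6 encodes the adaptor under interleukin-1 and Toll-like receptors, which builds the ubiquitin chains that recruit the kinase TAK1. It lies on the minus strand of chromosome 11 at 36483769 to 36510272 and had 4 peaks. The start peak, at chr11:36509315-36510934, also covers a start of RAG1 and was at 34.2 and 39.7 CPM in the control and 36.7 and 36.9 in sg1. The sg1 values lay between the controls (log2 fold change 0.00, SE 0.08, edgeR adjusted p = 0.995). A peak inside the gene, at chr11:36500214-36500801, fell from 23.3 and 26.9 CPM to 15.8 and 14.7 (log2 fold change -0.71, SE 0.10, edgeR adjusted p = 5.27e-07), and this call was kept in each alternative. It lies within 10 kb of RAG1 too. The 2 small peaks that start at 36478758 and 36492867 had log2 fold changes of 0.54 and 0.90 and were not called, though both sg1 libraries were above both controls.

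TRAF4 encodes a member found at cell junctions and first isolated from breast tumour metastases. It lies on chromosome 17 at 28744011 to 28750956, the shortest of the genes, and all 7 of its peaks also lie near or in neighbouring genes, among them NEK8 and FAM222B. The start peak, at chr17:28743078-28744140, rose from 37.0 and 34.4 CPM to 44.2 and 45.2 (log2 fold change 0.32, SE 0.07, edgeR adjusted p = 0.000795). Beyond the far end, the peak at chr17:28755341-28755859 rose from 5.63 and 6.45 CPM to 10.9 and 9.90 (log2 fold change 0.80, SE 0.15, edgeR adjusted p = 8.74e-05). Both rises were called by DESeq2 too, and both kept their sign whichever 1 library was left out. The start peak rose 1.25-fold, less than the alternative of at least a 1.5-fold change asks. The other peak lies outside the gene body, so the alternative of peaks inside gene bodies drops it. The peak that starts at 28735183 was higher and the one at 28745588 lower, with log2 fold changes of 0.68 and -0.96, and DESeq2 called neither. Between 10 and 50 kb outside TRAF4, 6 of 14 tested peaks were higher and 2 lower, where 11.5% of all tested peaks were higher and 16.8% lower.

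TRAF7 encodes the member with WD40 repeats, which works with the kinase MAP3K3. It lies on chromosome 16 at 2155782 to 2178129, and 2 of its 5 peaks, all of which lie near or in RAB26 as well, were higher and none lower with edgeR or DESeq2. The start peak, at chr16:2155220-2155889, is shared with the start of SNHG19 and overlapped between groups, with 21.2 and 23.8 CPM in the control and 23.5 and 25.3 in sg1 (log2 fold change 0.12, SE 0.09, edgeR adjusted p = 0.321). Inside the gene, the peak at chr16:2159165-2159766 rose from 7.48 and 6.12 CPM to 11.6 and 12.2 (log2 fold change 0.79, SE 0.14, edgeR adjusted p = 4.06e-05). Before the start, toward RAB26, the peak at chr16:2147964-2148718 rose from 7.57 and 6.71 CPM to 9.91 and 10.9 (log2 fold change 0.53, SE 0.14, edgeR adjusted p = 0.00422), a call lost without sg1 replicate 2. The other 2 peaks, which start at 2153649 and 2162743, had log2 fold changes of 0.03 and 0.22 and were not called.

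Counts were also summed per gene over its gene-end peaks and, apart, over its other peaks, and fitted with edgeR over the sums of all genes. Of the 14 TRAF sums, 6 were lower and 4 higher. Among all genes, 10.2% of gene-end sums were lower and 35.9% higher, and 26.1% of the sums over other peaks were lower and 20.8% higher. TRAF2 was lower in both sums, from 46.5 ± 1.38 to 37.1 ± 0.150 CPM at gene-end peaks (SD, n = 2, log2 fold change -0.33, edgeR adjusted p = 2.04e-05). Over its other peaks it went from 147 ± 0.0116 to 95.3 ± 0.832 CPM (SD, n = 2, log2 fold change -0.63, edgeR adjusted p = 5.00e-29). TRAF3 was lower in both as well (log2 fold changes -0.34 and -0.48, edgeR adjusted p = 0.0183 and 2.19e-10), but its gene-end sum was not called by DESeq2, nor without control replicate 2, sg1 replicate 1 or its highest peak. TRAF6 was lower over its other peaks (-0.53, edgeR adjusted p = 1.16e-06), a sum that rests on 1 peak. Without that peak the sum was higher (0.64, edgeR adjusted p = 0.0196). TRAF1 was lower over its other peaks, from 177 ± 2.95 to 102 ± 0.143 CPM (SD, n = 2, log2 fold change -0.80), and not called at gene-end peaks (0.12).

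TRAF4 was higher in both sums (0.28 and 0.27), TRAF5 at gene-end peaks (0.63) and TRAF7 over its other peaks (0.44, edgeR adjusted p = 3.31e-07). The TRAF4 call over other peaks was lost without control replicate 2, sg1 replicate 1 or sg1 replicate 2, and without the highest peak of the sum the value was -0.01. The TRAF4 gene-end sum rests on its start peak, since without it the value was 0.09 (edgeR adjusted p = 0.667). Against the sums of all genes of the same kind, the TRAF1 sum over other peaks stood at percentile 5.03, TRAF2 at 7.67, TRAF6 at 10.3 and TRAF3 at 11.9, with TRAF5, TRAF4 and TRAF7 between 71.4 and 90.3, in that order. The TRAF1 percentile is a description, since its values in this contrast selected it. The sums of TRAF2 to TRAF7 lay between percentiles 7.67 and 90.3.

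**Figure D5:**
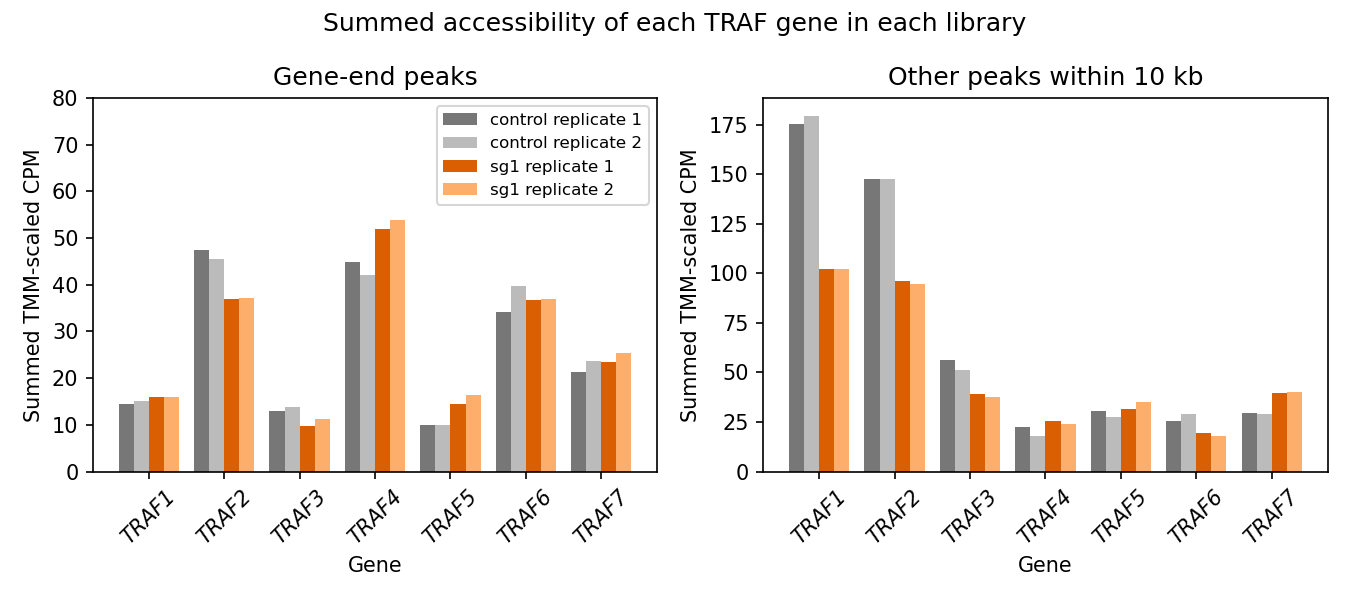
Summed TMM-scaled CPM of each TRAF gene in each library, over gene-end peaks on the left and other peaks within 10 kb on the right, with different scales. TRAF1 and TRAF2 have the largest sums over other peaks in the control and are lower in both sg1 libraries, while TRAF7 is higher.

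The place of the called TRAF peaks is given as counts, with no test. Of the 25 lower peaks, 1 covered an annotated start, that of TRAF1, and 17 lay inside or across a gene. Of the 9 higher peaks, 4 covered a start, counting the peak by the far end of TRAF5 that covers the start of LOC124904504, and 5 lay inside or across a gene. Of the 28 peaks not called, 4 covered a start and 20 lay inside or across a gene. Over the genome, 807 of the 31038 lower peaks and 3468 of the 21261 higher peaks covered a start of a protein-coding gene. Such start peaks were themselves more often higher than lower, at 31.6% and 7.36%. Lower peaks had a median length of 463 bp and higher peaks of 710 bp, and their median control levels were 5.83 and 7.14 CPM. Peaks not called had a median length of 328.5 bp and a median control level of 4.21 CPM. In the 10 to 50 kb beyond the genes, 7 of 71 tested peaks were lower and 13 higher, against 16.8% and 11.5% of all tested peaks.

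Partners of TRAF proteins formed 5 lists, each gene being represented by its tallest gene-end peak. Of 78 tested members, 10 (12.8%) were lower and 29 (37.2%) higher, against 8.94% and 30.6% of all genes, and the median was 0.13 against 0.15. Among receptors that act through TRAF proteins, 4 of 21 were lower and 8 higher. TNFRSF8, which encodes the receptor CD30, fell from 34.8 and 37.2 CPM to 20.9 and 21.4 (log2 fold change -0.77, SE 0.08, edgeR adjusted p = 3.74e-09). TNFRSF19 fell (-0.57), and TNFRSF12A, the receptor of TWEAK, rose (0.28) at a peak it shares with HCFC1R1 and THOC6. Among 11 adaptors, 1 was lower and 4 higher, led by MAVS (0.57), IRAK4 (0.47, shared with PUS7L) and TIFA (0.44). MAVS is the adaptor of RNA sensors on mitochondria, IRAK4 a kinase under MYD88, and TIFA binds TRAF6.

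Ubiquitin enzymes and ligases had 2 lower and 4 higher of 13. BIRC3, which encodes the ligase cIAP2 that TRAF2 recruits, fell from 58.6 and 51.3 CPM to 33.6 and 32.6 (log2 fold change -0.73, SE 0.07, edgeR adjusted p = 9.04e-10). The other lower member was BIRC2 (-0.23), which encodes cIAP1, while PELI2 (0.47) and RBCK1 (0.50), a subunit of the linear ubiquitin ligase, rose. Kinases and their subunits had 1 lower and 8 higher of 16, with IKBKE lower (-0.58) and MAP3K1 (0.55) and MINK1 (0.56) higher. MAP3K14, the NIK gene, rose by 0.40 on the log2 scale. Among 17 restrainers of TRAF signalling, 2 were lower and 5 higher. TNIP1 and CYLD, which both limit ubiquitin signals, were the lower members (-1.65 and -0.30), and TNIP2 rose (0.45). These lists were chosen with earlier results of these data known, and their counts are a description.

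Away from gene ends, the lists differed in their counts. Of the other peaks within 10 kb of or inside restrainer genes, 50 of 151 (33.1%) were lower and 10 higher, against 17.6% and 9.99% of all such peaks. For adaptors 16 of 57 were lower and 4 higher, and for receptors 27 of 140 were lower and 13 higher. For ubiquitin enzymes 17 of 80 were lower and 14 higher, with a median log2 fold change of 0.14. For kinases 27 of 182 (14.8%) were lower and 21 (11.5%) higher, both near the shares of all such peaks, and their median was 0.02. Of the other peaks of TRAF2 to TRAF7 together, 13 of 35 (37.1%) were lower and 6 higher. By gene these losses were 4 of 6 peaks for TRAF2, 6 of 11 for TRAF3, 1 of 5 for TRAF4, 1 of 6 for TRAF5, 1 of 3 for TRAF6 and 0 of 4 for TRAF7.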

How the data were processed

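ATAC-seq counts of 4 LM2 libraries, 2 control and 2 sg1, were analysed from the deposited table of raw counts per peak. Per the file headers, the authors counted with featureCounts 1.6.0 on cut-site alignments read as single ends, so a fragment can count at both ends. MACS2 2.2.4 and Bowtie2 are among the tools in the submitters' processing notes, beside Trimmomatic 0.39, deepTools 3.1.3 and DESeq2 1.32. For build, peak merging and duplicates, nothing is given in the sources used here. The RefSeq tables of GRCh38.p14 fitted the positions: 62.7% of 22078 annotated starts lay in a peak, against 4.28% and 3.86% after shifts of 100 kb either way. Coordinates are copied from the deposited peaks. The gene table holds no exons, so exon, intron and UTR are not given.

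The 109 peaks in the first 250 kb of chromosome 1, which took 17.9% to 25.4% of each library's counts, were left out. edgeR 4.0.16 (R 4.3.3) was run with filterByExpr, TMM, the quasi-likelihood test on group and Benjamini-Hochberg adjustment, after a test on simulated data. It left 184717 peaks and 5522 were too low. In the simulated data, 24% of 1.5-fold, 52% of 2-fold and 92% of 4-fold changes were called, so a peak not called can still have changed. The common dispersion gave a biological coefficient of variation of 8.13%. DESeq2 1.42.0, other scalings, filters, windows and left-out libraries were alternatives. Members, lists, motifs and the rule for named genes were chosen with earlier results of these data known. The rule takes each TRAF gene's tallest gene-end peak, up to 6 called peaks by p, up to 3 members a list and the 3 genes nearest to TRAF1. BIRC2, MAP3K14, the 6 genes that share the pattern of TRAF1 and the other peaks printed were chosen after their values were seen. Python 3.11.15, pandas 2.3.3, numpy 2.4.6 and matplotlib 3.10.9 served for the rest.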

Additional observations from a re-analysis of the deposited data

How the results depend on the processing

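Scaling by total counts or DESeq2 size factors, no filter and keeping the chromosome 1 segment left the counts of called TRAF peaks at 25 lower and 9 higher. With the replicate block they were also 25 and 9, and 30361 and 21215 over all peaks. The deviations of same-numbered libraries correlated at 0.000131 over peaks, which gave no sign of a shared deviation. It cannot tell whether such libraries were prepared as pairs. DESeq2 called 15 TRAF peaks lower, and 17866 lower and 8475 higher over all peaks. Leaving out 1 library gave 14 to 24 lower and 6 to 9 higher TRAF peaks, 18880 to 29467 lower and 11148 to 20243 higher over all peaks, against 31038 and 21261 with all 4, and 5333 to 7960 higher gene sums. With sg1 replicate 1 left out, all peaks gave 19017 lower and 11520 higher and gene sums 5859 higher. With a 50 kb window, which adds 71 tested peaks to the 62, 22 TRAF peaks were higher and 32 lower. Inside gene bodies 5 were higher, beside 17 lower and 20 not called. With at least a 1.5-fold change 5 were higher and 21 lower, and the shares over all peaks at that setting are not given. Within 250 bases of a gene end, 2 gene-end peaks were lower. Without the highest peak of each sum, 2 TRAF sums and 4033 sums in all were higher. That construction also reversed the TRAF1 gene-end sum (-0.82) and the sums over other peaks of TRAF4 (-0.0144), TRAF5 (-0.38) and TRAF6 (0.64). The reversed TRAF5 and TRAF6 sums passed the FDR (edgeR adjusted p = 0.0147 and 0.0196). The TRAF6 gene-end sum was -0.11 without control replicate 1 and -0.00404 without sg1 replicate 2, and its start peak -0.11 without control replicate 1. Over the 4 left-out libraries the sum ran from -0.11 to 0.105 and the start peak from -0.11 to 0.104. The TRAF5 sum over other peaks, 0.18 and not called, passed with total counts (0.23), with DESeq2 size factors (0.19) and without control replicate 1 (0.27). The cause of these shifts was not tested. Depth limits the small peaks, of which 1 TRAF3 peak was too low to test.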
